A study of Mus musculus with 15 samples.

Results

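The 42 genes described here encode proteins that fold, N-glycosylate and dispose of proteins in the endoplasmic reticulum (ER). They were taken by symbol from a table of 21761 mouse genes, and all 42 symbols were found in it. RNA came from splenic CD43- B cells of female wild-type C57BL/6J mice, in 5 groups of 3 libraries. The CD138+ GSK-J4, CD138+ DMSO, GL7+ GSK-J4 and GL7+ DMSO groups shared a 3-day culture with LPS, IL-2 and IL-5, with 250 nM GSK-J4 or with DMSO, its solvent. GSK-J4 inhibits KDM6A and KDM6B, the enzymes that remove the repressive histone mark H3K27me3. After culture the cells were enriched magnetically for CD138, a surface marker of plasmablasts and plasma cells, or for GL7, a marker of activated B cells, and the labels give no purity. The naive group was unstimulated CD43- cells with no drug and no DMSO, so a comparison with it holds stimulation, culture and solvent together. Replicate numbers name the mouse, except for 1 CD138+ GSK-J4 library, here replicate 4, whose mouse is not known.

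Proteins that are secreted or sit in the cell surface enter the ER as they are made. Oligosaccharyltransferase transfers a preassembled sugar tree from the lipid dolichol to asparagines of the growing chain, glucosidases trim it, and the lectin chaperones calnexin and calreticulin hold the glycoprotein while disulfide isomerases and the HSP70 and HSP90 chaperones of the ER fold it. Chains that fail to fold have their mannoses trimmed, are recognised by lectins and pass through a membrane ubiquitin ligase to the proteasome, the route called ER-associated degradation (ERAD). Plasmablasts secrete large amounts of antibody, and their ER is known to expand as they form. The transcription factors ATF6 and XBP1 of the unfolded protein response act on many of these genes through short promoter elements.

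The promoters of the members are shown here because the best known of these elements, the ER stress element (ERSE), is written in some of them. RefSeq promoters of the GRCm38.p6 build, from 250 bases before to 50 bases after the transcription start, were matched by symbol for 33 of the 42 members. The ERSE was searched on both strands as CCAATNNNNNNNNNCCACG, whose CCAAT part is known to bind NF-Y and whose CCACG part is known to bind ATF6. It was found in 6 of these 33 members (18.2%) and in 37 of all 27025 genes with a promoter in the table (0.137%). The 6 were Calr, Canx, Derl3, Hsp90b1 (which holds 2 copies), Pdia6 and Syvn1. Capitals mark the CCAAT and CCACG parts, or ATTGG and CGTGG where the element lies on the opposite strand, and each sequence is written in the direction of its gene.
Calr (chr8:84847055-84847113, minus strand): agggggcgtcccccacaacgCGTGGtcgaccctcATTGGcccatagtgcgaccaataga
Canx (chr11:50325780-50325838, minus strand): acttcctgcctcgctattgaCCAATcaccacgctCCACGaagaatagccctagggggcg
Derl3 (chr10:75893222-75893280, plus strand): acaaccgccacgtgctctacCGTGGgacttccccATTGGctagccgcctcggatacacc
Hsp90b1 (chr10:86705523-86705666, minus strand): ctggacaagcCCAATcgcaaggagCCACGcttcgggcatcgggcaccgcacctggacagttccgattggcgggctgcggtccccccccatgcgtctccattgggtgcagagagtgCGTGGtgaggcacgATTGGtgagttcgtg
Pdia6 (chr12:17266471-17266529, plus strand): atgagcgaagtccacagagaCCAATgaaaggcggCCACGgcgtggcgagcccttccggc
Syvn1 (chr19:6046512-6046570, plus strand): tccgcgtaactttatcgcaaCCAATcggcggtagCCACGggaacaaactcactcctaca

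All 7 copies lay before the start. The copy in Calr ran from 162 to 144 bases before it, that in Canx from 145 to 127, that in Derl3 from 156 to 138, those in Hsp90b1 from 212 to 194 and from 107 to 89, that in Pdia6 from 98 to 80 and that in Syvn1 from 44 to 26. The related element ERSE-II, searched as ATTGG, any base and CCACG, was found in Dnajb11 alone among the members, from 8 to 18 bases after the start, and in 12 of all genes (0.0444%). This search was added after the ERSE had been counted. The shorter core ACGTG, which XBP1 and other factors are known to bind, was in 15 of the 33 promoters (45.5%) and in 21.8% of all genes with a promoter. In no member did an ACGTG overlap an ERSE copy. These matches are letters in a window, and no binding was measured.

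Levels are given as RPKM, reads scaled by the length of the gene and by the reads of the library assigned to genes, with the mean ± SD over n = 3 libraries. Depth was 6241186 to 7712449 assigned reads in CD138+ GSK-J4, 9676980 to 11636158 in CD138+ DMSO, 9174692 to 12212898 in GL7+ GSK-J4, 9806246 to 11519366 in GL7+ DMSO and 1318002 to 13189960 in naive cells, where replicate 2 was the shallow library. Sdc1, which encodes CD138, was at 40.1 ± 5.25 RPKM in CD138+ GSK-J4 and 32.6 ± 2.44 in CD138+ DMSO, against 2.88 ± 0.496 in GL7+ GSK-J4, 1.37 ± 0.152 in GL7+ DMSO and 3.13 ± 1.42 in naive cells. GL7 is a glycan and has no transcript of its own, so this check covers CD138 alone. The summed levels of marker lists of other cells were lower in cultured than in naive cells. Summed T cell markers reached 4.07 RPKM in any cultured library against 20.8 to 26.0 in naive ones, and myeloid and dendritic markers 4.14 against 67.4 to 101 RPKM. NK cell markers reached 0.19 against 1.79 to 3.25 RPKM, and erythroid and platelet markers 9.61 against 70.1 to 85.9. Cd3e was at 0 in every cultured library. Single markers were not all near 0 in GL7+ cells, where Hbb-b1 was at 9.05 RPKM with GSK-J4 and 5.89 with DMSO and Lck at 3.81 and 3.18, and Itgam, at 2.71 RPKM in GL7+ DMSO and 2.83 in naive cells, overlapped between these groups. The part of such cells in the naive comparisons was not tested.

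All members but Pdia5 passed the filter of at least 1 RPKM in at least 3 libraries that was set for testing, and the 41 that passed reached it in every library, the lowest value being Derl3 at 3.09 RPKM (6 reads) in naive replicate 2. Together the 42 members took 3.71 ± 0.0755% of assigned reads in CD138+ GSK-J4, 3.36 ± 0.0910% in CD138+ DMSO, 1.77 ± 0.0783% in GL7+ GSK-J4, 1.49 ± 0.0404% in GL7+ DMSO and 0.597 ± 0.0340% in naive cells. The libraries of these 5 groups did not overlap in this share. The HSP90 and HSP70 chaperone system made up the largest part in cultured cells, with 1.20 ± 0.0264% in CD138+ GSK-J4 and 1.03 ± 0.0369% in CD138+ DMSO. In naive cells the lectin chaperone cycle came first, with 0.162 ± 0.00784% against 0.107 ± 0.0105% for the HSP90 and HSP70 system. In each cultured group the highest levels were those of Hsp90b1, Calr, Pdia4 and Pdia3, in that order. In naive cells Calr (319 ± 17.7 RPKM) stood before Hsp90b1 (224 ± 26.96), whose libraries did not overlap with those of Calr. In bulk RNA, fewer cells of a type and less RNA per cell cannot be told apart, here and in all results that follow.

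**Figure D1:**
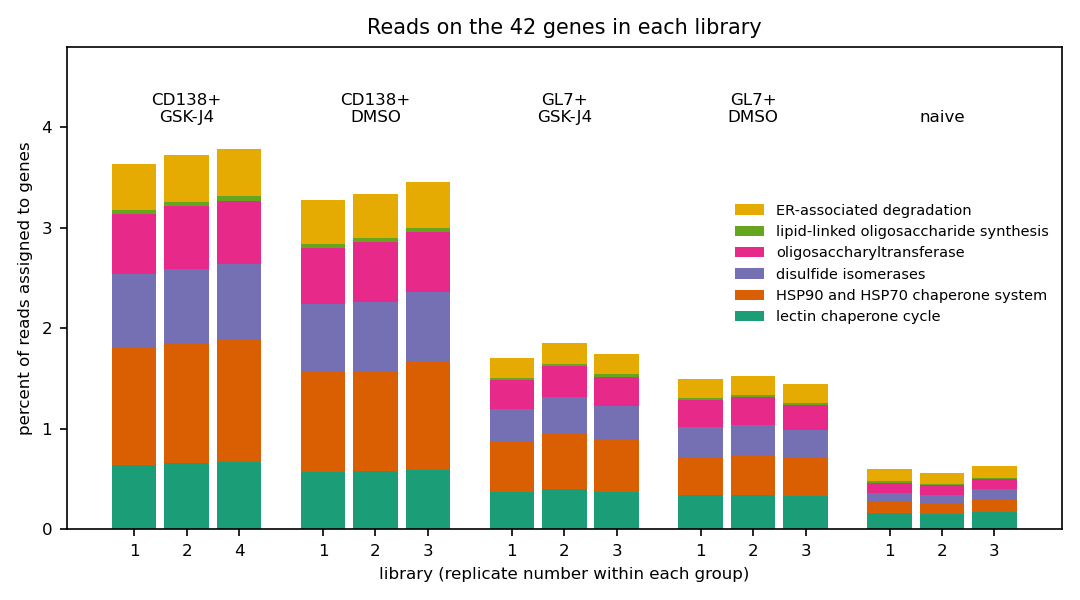
Percent of assigned reads on the 42 genes in each of 15 libraries, stacked by role, with libraries on the x axis grouped by cell fraction and treatment. The CD138+ GSK-J4 libraries took 3.63 to 3.78% and the CD138+ DMSO libraries 3.28 to 3.45%, against 1.70 to 1.85% in GL7+ GSK-J4, 1.45 to 1.53% in GL7+ DMSO and 0.563 to 0.631% in naive libraries.

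**Figure D2:**
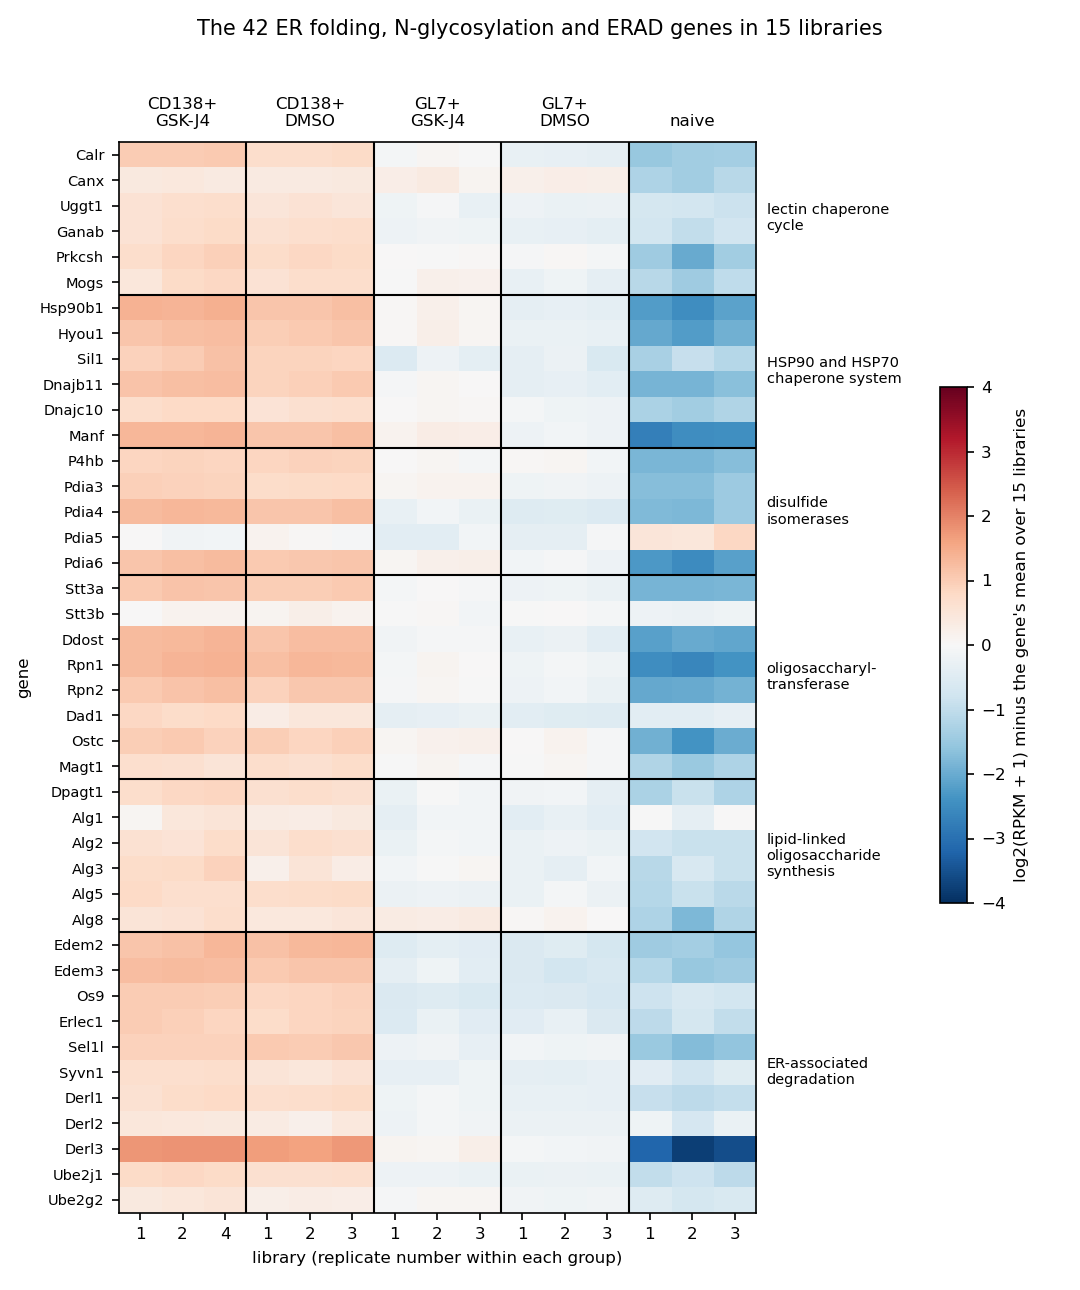
log2(RPKM + 1) of each of the 42 genes (rows, by role) in each of 15 libraries (columns), less the mean of that gene over all libraries. Red is above and blue below that mean: most genes run red in both CD138+ groups and blue in naive cells, while Stt3b stays near its mean and Pdia5 is highest in naive cells.

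The first comparison asked how the CD138+ fraction differed from the GL7+ fraction of the same cultures without drug. Of the 41 members tested 40 rose in CD138+ DMSO and none fell (limma, adjusted p under 0.05), where 21.8% of all 10866 genes tested rose and 36.9% fell. The members and lists were chosen with earlier results of these data known. Here and below, counts set beside the shares of all genes are therefore descriptions. The median log2 change of the members was 0.94, against -0.10 over all genes tested. In 41 of 41 members the lowest CD138+ DMSO library stood above the highest GL7+ DMSO library, as in 26.5% of all genes. Between the same libraries the summed plasmablast markers were at 2849 to 3063 RPKM in CD138+ DMSO against 598 to 659 in GL7+ DMSO, B cell markers at 966 to 1023 against 1414 to 1472, T cell markers at 1.04 to 1.16 against 3.21 to 3.33 and erythroid and platelet markers at 1.11 to 1.78 against 5.40 to 6.77, and their part in the result was not tested. The GL7+ DMSO group against naive cells had 38 members higher and none lower, where 41.3% of all genes rose and 40.3% fell, with a median of 1.09 in the members and 0.01 over all genes. In 37 members the lowest GL7+ DMSO library stood above the highest naive one, as in 40.7% of all genes, and in 1, Dad1, all GL7+ DMSO libraries stood below the naive ones. CD138+ DMSO against naive cells had 41 higher and none lower, where 39.9% of all genes rose and 43.5% fell, with medians of 2.00 and -0.05. In 41 members the lowest CD138+ DMSO library stood above the highest naive one, as in 39.4% of all genes. These 3 comparisons share libraries, so their values are given side by side and not as independent results. GL7+ DMSO is the control of the first and the tested group of the second, so its errors move these 2 in opposite directions. The log2 change of the third is the sum of the other 2. A log2 change is a difference of mean log2(RPKM + 1) between 2 groups. A fold is a ratio of mean RPKM without the added 1, so it departs most from the log2 change at low levels.

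**Figure D3:**
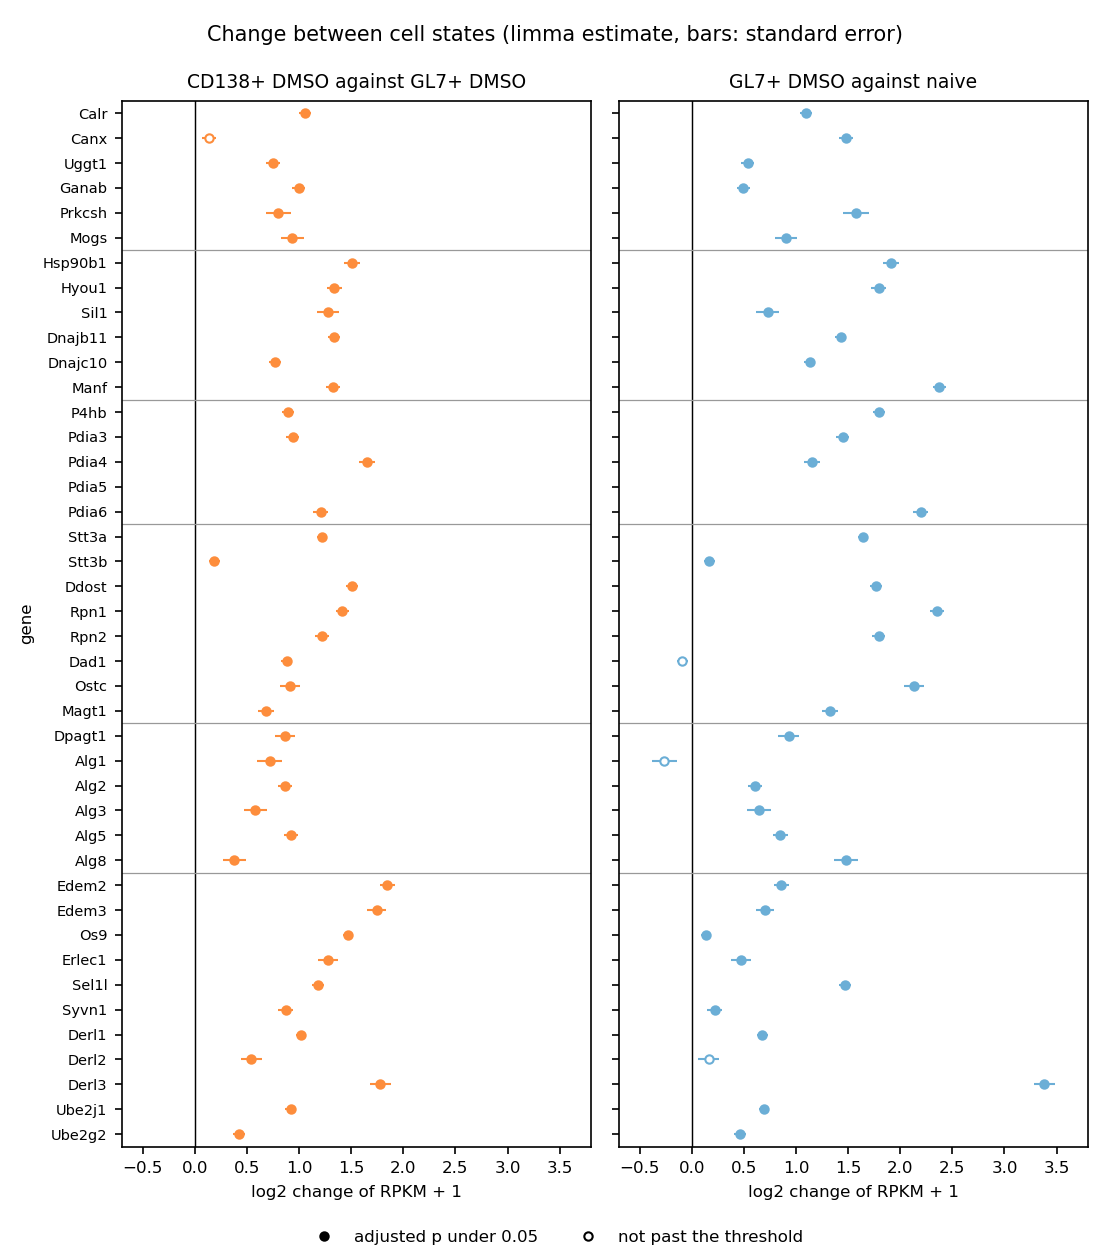
log2 change of RPKM + 1 with its standard error (limma) for each tested gene in CD138+ DMSO against GL7+ DMSO (left) and in GL7+ DMSO against naive cells (right), n = 3 libraries per group; filled points passed an adjusted p of 0.05. Derl3 has the largest change on the right (3.38) and Edem2 on the left (1.85), Canx is not past the threshold on the left, and Dad1 and Alg1 lie below 0 on the right; quantile normalization turned the sign of Stt3b, Os9 and Syvn1 on the right.

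In the lectin chaperone cycle, Calr and Canx encode the soluble and the membrane-bound lectin chaperone and took different courses. Calr had 1742, 1730.2 and 1777 RPKM in CD138+ GSK-J4, 1399, 1393 and 1471 in CD138+ DMSO, 809.5, 895 and 856 in GL7+ GSK-J4, 690.3, 688 and 668 in GL7+ DMSO and 299, 326 and 333 in naive libraries. Canx had 254, 259 and 248 RPKM in CD138+ GSK-J4, 252, 249 and 255 in CD138+ DMSO, 236, 248 and 211 in GL7+ GSK-J4, 226, 235 and 227 in GL7+ DMSO and 82.7, 73.2 and 90.4 in naive libraries. Calr rose in both steps, by 1.06 ± 0.055 (SE) in CD138+ DMSO over GL7+ DMSO (adjusted p = 1.07e-09) and by 1.09 ± 0.055 in GL7+ DMSO over naive cells (adjusted p = 8.65e-11). Canx rose by 1.48 ± 0.069 in GL7+ DMSO over naive cells (adjusted p = 3.59e-11). Between the cultured fractions its change was 0.13 ± 0.069 (adjusted p = 0.108), although the CD138+ DMSO libraries all stood above those of GL7+ DMSO. It passed with TMM scaling (0.26, adjusted p = 0.00622), with limma-voom on recovered reads (adjusted p = 0.0425), with only the 2 groups in the fit (0.00421) and without naive replicate 2 (0.04), in a range of adjusted p over all alternatives of 0.00421 to 0.638. The ratio of Calr to Canx was 6.90 ± 0.247 in CD138+ GSK-J4, 5.64 ± 0.116 in CD138+ DMSO, 3.70 ± 0.324 in GL7+ GSK-J4, 2.97 ± 0.0700 in GL7+ DMSO and 3.92 ± 0.464 in naive cells.

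The enzymes that act on the glucoses of the sugar tree rose in both steps. Mogs, glucosidase I, had 71.8, 77.3 and 78.2 RPKM in CD138+ DMSO, 38.7, 42.3 and 36.6 in GL7+ DMSO and 21.6, 17.3 and 23.2 in naive libraries. Prkcsh and Ganab, the regulatory and the catalytic subunit of glucosidase II, differed in the step from which most of their change came: relative to naive cells GL7+ DMSO was higher by 1.58 ± 0.12 for Prkcsh and by 0.49 ± 0.063 for Ganab, and CD138+ DMSO was higher than GL7+ DMSO by 0.80 ± 0.12 and 1.00 ± 0.063. The difference between the 2 subunits was not tested. Uggt1, which puts a glucose back on chains that are not yet folded, was at 46.7 ± 1.75 RPKM in CD138+ DMSO, 27.3 ± 0.443 in GL7+ DMSO and 18.6 ± 1.12 in naive cells.

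In the HSP90 and HSP70 chaperone system all 6 members rose in all 3 comparisons. Hsp90b1, the HSP90 of the ER (GRP94), had 2837, 2823 and 2927 RPKM in CD138+ GSK-J4, 2375, 2331 and 2504 in CD138+ DMSO, 1124, 1265 and 1160.4 in GL7+ GSK-J4, 844, 860.3 and 823 in GL7+ DMSO and 229, 194 and 248 in naive libraries. The groups did not overlap, and CD138+ DMSO stood 10.7-fold above naive cells (log2 change 3.43 ± 0.077, adjusted p = 8.36e-15). Manf, a small ER protein that binds the HSP70 of the ER, had 380.1, 380.2 and 393 RPKM in CD138+ GSK-J4, 329, 329 and 349 in CD138+ DMSO, 168, 184 and 183 in GL7+ GSK-J4, 130.2, 139 and 131 in GL7+ DMSO and 21.9, 26.2 and 26.9 in naive libraries. It was 5.34-fold higher in GL7+ DMSO than in naive cells (log2 change 2.38 ± 0.066 SE, adjusted p = 1.23e-13) and 2.52-fold higher in CD138+ DMSO than in GL7+ DMSO (log2 change 1.32 ± 0.066 SE, adjusted p = 6.81e-10). Hyou1, a large HSP70 relative that exchanges nucleotides on BiP, was at 309.7 ± 13.01 RPKM in CD138+ DMSO, 122 ± 1.68 in GL7+ DMSO and 34.6 ± 3.74 in naive cells. Sil1, another exchange factor of BiP, stayed lower, with 33.7 ± 0.683, 13.4 ± 1.73 and 7.69 ± 1.13 RPKM in the same groups. Of the J-domain co-chaperones, Dnajb11 (ERdj3) rose by 1.33 ± 0.056 and Dnajc10 (ERdj5) by 0.77 ± 0.056 in CD138+ DMSO over GL7+ DMSO, with adjusted p = 1.47e-10 and 2.91e-08.

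Of the disulfide isomerases, 4 rose in all 3 comparisons and Pdia5 had few reads in any library. Pdia4 (ERp72) had 936, 937 and 997 RPKM in CD138+ DMSO, 307, 309 and 297 in GL7+ DMSO and 129, 124 and 159 in naive libraries. P4hb, the classical protein disulfide isomerase, had 532, 560.2 and 547 RPKM in CD138+ DMSO, 303, 311 and 269 in GL7+ DMSO and 81.9, 82.2 and 88.6 in naive libraries. The ratio of Pdia4 to P4hb was 1.75 ± 0.0758 in CD138+ DMSO, 1.04 ± 0.0585 in GL7+ DMSO and 1.63 ± 0.150 in naive cells. The log2 change of Pdia4 was 1.65 ± 0.078 in CD138+ DMSO over GL7+ DMSO and 1.15 ± 0.078 in GL7+ DMSO over naive cells, against 0.89 ± 0.058 and 1.79 ± 0.058 for P4hb. Pdia3 (ERp57), which works with the lectin chaperones, was at 569.7 ± 11.1, 297 ± 6.91 and 109 ± 12.3 RPKM in CD138+ DMSO, GL7+ DMSO and naive cells. Pdia6 was at 511 ± 11.2, 221 ± 11.1 and 47.7 ± 5.60 RPKM. Pdia5 had 0.354, 0.215 and 0.244 RPKM in CD138+ GSK-J4, 0.457, 0.380 and 0.302 in CD138+ DMSO, 0, 0 and 0.226 in GL7+ GSK-J4, 0.0480, 0.0480 and 0.282 in GL7+ DMSO and 0.880, 0.839 and 1.34 in naive libraries. It rested on 0 to 21 reads and was highest in the naive libraries, where the other isomerases were lowest. In a fit without the filter on low values Pdia5 was lower in CD138+ DMSO than in naive cells (log2 change -0.54 ± 0.11 SE, limma adjusted p = 0.000851) and lower in GL7+ DMSO than in naive cells (-0.84 ± 0.11 SE, adjusted p = 2.09e-05). Between the fractions it ran the same way as the other isomerases. Its CD138+ DMSO libraries stood above those of GL7+ DMSO, and the change did not pass (0.30 ± 0.11 SE, adjusted p = 0.055).

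Oligosaccharyltransferase exists as a complex built on STT3A, which acts while the chain is made, and a complex built on STT3B, which acts on sites that were skipped. The catalytic subunits stood apart in these libraries. Stt3a had 389.7, 411 and 403 RPKM in CD138+ GSK-J4, 367, 375 and 386 in CD138+ DMSO, 177, 189.9 and 181 in GL7+ GSK-J4, 162, 166 and 155 in GL7+ DMSO and 50.3, 50.6 and 51.8 in naive libraries. Stt3b had 83.7, 90.3 and 90.8 RPKM in CD138+ GSK-J4, 87.99, 95.9 and 90.8 in CD138+ DMSO, 81.1, 84.05 and 75.2 in GL7+ GSK-J4, 81.4, 82.5 and 77.5 in GL7+ DMSO and 71.04, 70.3 and 73.1 in naive libraries. Stt3a rose by 1.22 ± 0.044 in CD138+ DMSO over GL7+ DMSO and by 1.64 ± 0.044 in GL7+ DMSO over naive cells (adjusted p = 4.57e-11 and 8.69e-14). Stt3b rose by 0.18 ± 0.052 and 0.17 ± 0.052 (adjusted p = 0.00703 and 0.00795), and over naive cells it was no longer called with TMM scaling (0.11, adjusted p = 0.0735) and was lower with quantile normalization (-0.16, adjusted p = 0.012). The ratio of Stt3a to Stt3b was 4.55 ± 0.111 in CD138+ GSK-J4, 4.11 ± 0.181 in CD138+ DMSO, 2.28 ± 0.113 in GL7+ GSK-J4, 2.00 ± 0.0153 in GL7+ DMSO and 0.712 ± 0.00691 in naive cells. In naive cells Stt3b thus had the higher level per length, and in all cultured libraries Stt3a had.

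**Figure D4:**
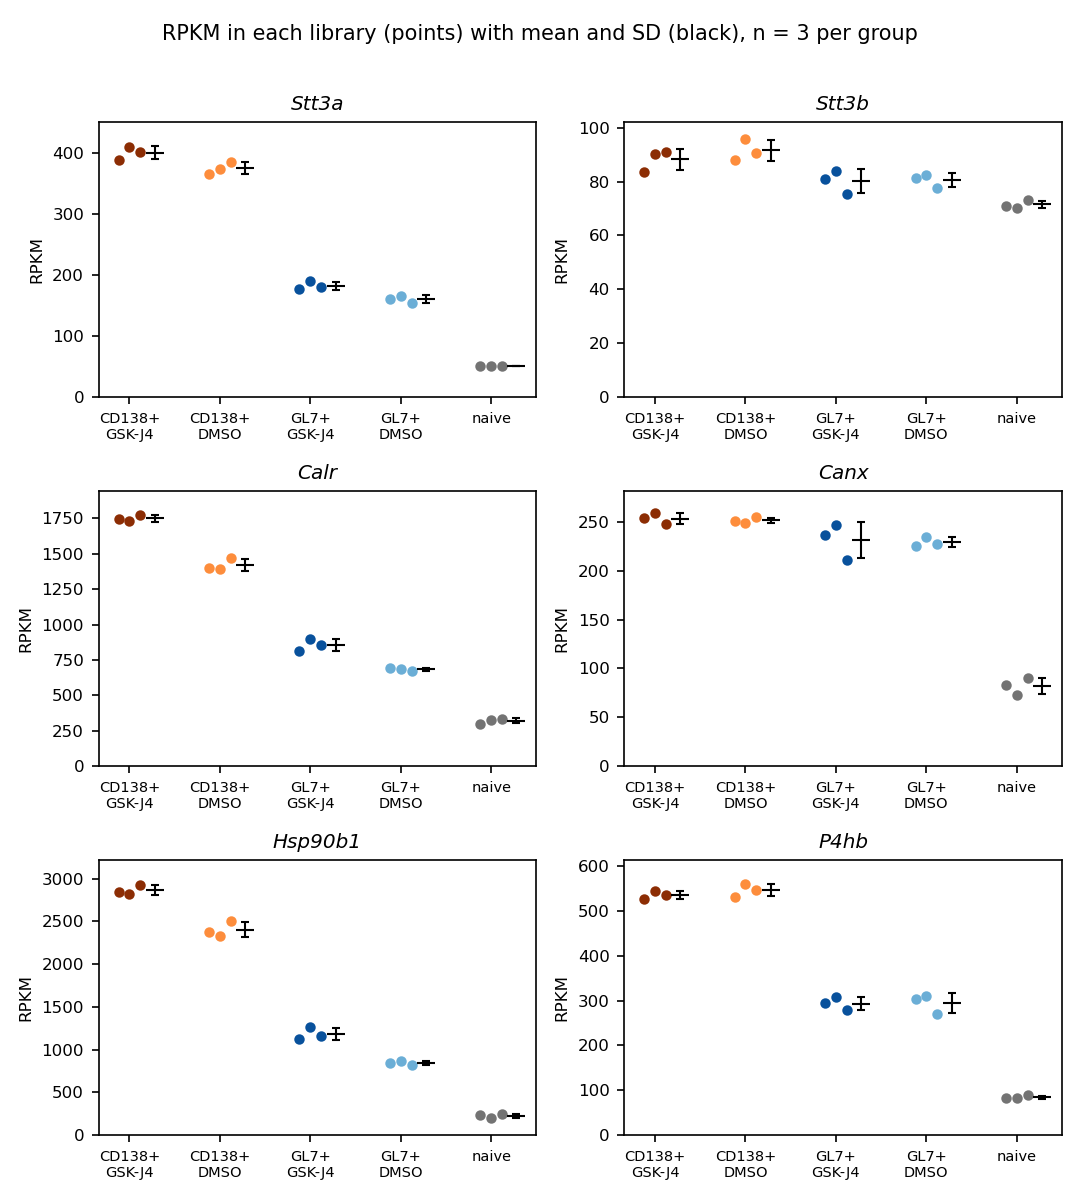
RPKM of 6 genes in each library (coloured points) with the mean and SD of each group (black, n = 3), groups on the x axis. Stt3a, Calr and Hsp90b1 (left) step down in every group to the right, while Stt3b, Canx and P4hb (right) differ little between some neighbouring groups, Stt3b lying between 70.3 and 95.9 RPKM in all 15 libraries.

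The subunits of the shared core rose with Stt3a, except for Dad1. Rpn1 had 416, 449.9 and 447 RPKM in CD138+ DMSO, 161, 172 and 158 in GL7+ DMSO and 31.1, 28.96 and 33.8 in naive libraries. Its log2 change of 3.77 ± 0.064 in CD138+ DMSO over naive cells (adjusted p = 5.4e-16), 13.98-fold, was the second largest among the members after Derl3. Ddost rose by 3.27 ± 0.057 and Rpn2 by 3.01 ± 0.064 in the same comparison. Dad1 had 54.1, 51.2 and 53.1 RPKM in CD138+ GSK-J4, 37.7, 41.7 and 42.3 in CD138+ DMSO, 23.4, 23.8 and 25.1 in GL7+ GSK-J4, 22.5, 21.3 and 20.8 in GL7+ DMSO and 22.6, 22.5 and 23.8 in naive libraries. It rose by 0.88 ± 0.053 in CD138+ DMSO over GL7+ DMSO (adjusted p = 4.56e-09), while its change in GL7+ DMSO over naive cells was -0.092 ± 0.053 (adjusted p = 0.124). This last change was past the threshold, as a decrease, with TMM scaling (-0.14, adjusted p = 0.0215) and with quantile normalization (-0.20, adjusted p = 0.00319). Ostc, a subunit of the STT3A complex, had 319 ± 12.7 RPKM in CD138+ DMSO, 169 ± 10.96 in GL7+ DMSO and 38.2 ± 6.53 in naive cells. Magt1, the oxidoreductase of the STT3B complex, had 48.4 ± 1.98, 29.7 ± 1.28 and 11.3 ± 1.27 RPKM in the same groups. In CD138+ DMSO over naive cells Magt1 rose by 2.01 ± 0.076 and Stt3b by 0.35 ± 0.052, and the call of Stt3b was lost with quantile normalization (0.063, adjusted p = 0.272).

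The enzymes that build the sugar tree on dolichol had the lowest levels of the 6 role groups, with 0.0369 ± 0.00124% of reads in CD138+ DMSO, 0.0213 ± 0.000869% in GL7+ DMSO and 0.0122 ± 4.2e-05% in naive cells. Dpagt1, which starts the tree, had 25.6, 26.6 and 25.3 RPKM in CD138+ DMSO, 14.3, 14.8 and 12.2 in GL7+ DMSO and 6.01, 8.13 and 6.24 in naive libraries, and rose in both steps. Alg2, which adds mannoses, had the highest level of the group in both CD138+ groups and in naive cells, and Alg8, at 26.6 ± 0.390 RPKM with GSK-J4 and 22.01 ± 1.06 with DMSO, in both GL7+ groups. Alg2 was at 36.1 ± 2.24 RPKM in CD138+ DMSO, 19.3 ± 0.453 in GL7+ DMSO and 12.3 ± 0.754 in naive cells. Alg8, which adds a glucose, changed most over naive cells in GL7+ DMSO (log2 change 1.48 ± 0.11 SE, adjusted p = 1.22e-08) and less between the fractions (log2 change 0.38 ± 0.11 SE, adjusted p = 0.0107). Alg5, which makes the glucose donor, was at 30.2 ± 0.575, 15.5 ± 1.28 and 8.19 ± 0.883 RPKM. Alg1, which adds the first mannose, had 15.03, 14.8 and 15.8 RPKM in CD138+ DMSO, 8.53, 9.48 and 8.63 in GL7+ DMSO and 11.8, 9.05 and 11.96 in naive libraries. It rose in CD138+ DMSO over GL7+ DMSO (log2 change 0.72 ± 0.12 SE, adjusted p = 0.000112). Its GL7+ DMSO libraries overlapped with the naive ones (log2 change -0.26 ± 0.12 SE, adjusted p = 0.0512), and this decrease passed with the mouse as a replicate block (adjusted p = 0.0488), with TMM scaling (0.0233), with limma-voom (0.00583), and without CD138+ GSK-J4 replicate 1 (0.02) or 4 (0.0449), GL7+ GSK-J4 replicate 1 (0.0471) or naive replicate 2 (0.00597).

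In ERAD all 11 members rose in CD138+ DMSO over GL7+ DMSO, and 10 of 11 rose in GL7+ DMSO over naive cells. Derl3 encodes a derlin, a family of membrane proteins through which substrates leave the ER. Derl3 had 188, 189 and 192 RPKM in CD138+ GSK-J4, 175, 167 and 183 in CD138+ DMSO, 58.8, 57.8 and 64.4 in GL7+ GSK-J4, 51.1, 50.1 and 49.7 in GL7+ DMSO and 5.15, 3.09 and 3.74 in naive libraries. It was 12.6-fold higher in GL7+ DMSO than in naive cells (log2 change 3.38 ± 0.10 SE, adjusted p = 3.2e-13) and 43.9-fold higher in CD138+ DMSO than in naive cells (log2 change 5.16 ± 0.10, adjusted p = 2.33e-15), the largest changes among the members in these comparisons. The other derlins differed less. Derl1 was at 137 ± 4.83 RPKM in CD138+ DMSO, 67.1 ± 0.782 in GL7+ DMSO and 41.7 ± 1.94 in naive cells. Derl2 was at 19.1 ± 1.68, 12.8 ± 0.0571 and 11.5 ± 2.19 RPKM, and its change in GL7+ DMSO over naive cells was 0.16 ± 0.10 (adjusted p = 0.157), past the threshold without naive replicate 1 (0.26, adjusted p = 0.0268). The ratio of Derl3 to Derl1 was 1.28 ± 0.0582 in CD138+ DMSO, 0.750 ± 0.00937 in GL7+ DMSO and 0.0952 ± 0.0211 in naive cells.

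Several ERAD genes changed more between the cultured fractions than between GL7+ and naive cells, again without a test of that difference. Edem2 and Edem3, which trim mannoses from chains that fail to fold, rose by 1.85 ± 0.07 and 1.74 ± 0.088 in CD138+ DMSO over GL7+ DMSO and by 0.86 ± 0.07 and 0.70 ± 0.088 in GL7+ DMSO over naive cells. Edem2 had 149, 160.3 and 165 RPKM in CD138+ DMSO, 43.2, 46.9 and 40.01 in GL7+ DMSO and 23.7, 24.8 and 21.9 in naive libraries. Os9, a lectin that reads the trimmed sugar, had 127, 131 and 135 RPKM in CD138+ DMSO, 48.2, 47.5 and 44.6 in GL7+ DMSO and 39.9, 45.3 and 42.4 in naive libraries. Its log2 change was 1.47 ± 0.049 between the fractions (adjusted p = 2.88e-11) and 0.13 ± 0.049 over naive cells in GL7+ DMSO (adjusted p = 0.0206), where the libraries overlapped. That last call was lost with TMM scaling, with only the 2 groups in the fit and without GL7+ DMSO replicate 1 or 2 or naive replicate 1 (adjusted p 0.0615 to 0.179), and its sign turned with quantile normalization (-0.10, adjusted p = 0.137). Erlec1, the other lectin, rose by 1.28 ± 0.093 between the fractions.

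Sel1l and Syvn1 encode the adaptor and the ubiquitin ligase (HRD1) of 1 complex. Sel1l had 107, 106 and 109 RPKM in CD138+ DMSO, 47.9, 45.8 and 46.2 in GL7+ DMSO and 17.5, 14.7 and 16.5 in naive libraries. Syvn1 had 115, 109 and 119 RPKM in CD138+ DMSO, 62.3, 60.8 and 63.4 in GL7+ DMSO and 57.4, 46.98 and 56.1 in naive libraries. Between the fractions they rose by 1.18 ± 0.059 and 0.87 ± 0.069. In GL7+ DMSO over naive cells Sel1l rose by 1.47 ± 0.059 (adjusted p = 6.28e-12) and Syvn1 by 0.22 ± 0.069 (adjusted p = 0.00909). With quantile normalization the change of Syvn1 was -0.09 (adjusted p = 0.211). The ubiquitin-conjugating enzymes Ube2j1 and Ube2g2 rose by 0.92 ± 0.052 and 0.43 ± 0.057 between the fractions and by 0.69 ± 0.052 and 0.46 ± 0.057 in GL7+ DMSO over naive cells.

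The next comparison asked how GSK-J4 changed these transcripts in the GL7+ fraction. Of the 41 members tested 15 rose with GSK-J4 and none fell, where 5.81% of all genes rose and 7.71% fell (limma, adjusted p under 0.05). The median log2 change was 0.16 in the members and -0.01 over all genes tested. In 22 members the lowest GL7+ GSK-J4 library stood above the highest GL7+ DMSO library, as in 19.1% of all genes. The changes were small, the largest being the rise of Hsp90b1 by 0.49 ± 0.077, 1.40-fold (adjusted p = 0.00131). Markers of cell identity differed between the same libraries. The 5 plasmablast markers (Sdc1, Prdm1, Xbp1, Irf4 and Jchain) all rose, with summed levels of 773 to 868 RPKM in GL7+ GSK-J4 against 598 to 659 in GL7+ DMSO, and 2 of 4 B cell markers fell, with sums of 1073 to 1232 against 1414 to 1472 RPKM. Erythroid and platelet markers summed to 8.85 to 9.61 RPKM with GSK-J4 against 5.40 to 6.77 with DMSO, mostly Hbb-b1 (log2 change 0.55 ± 0.19 SE, adjusted p = 0.0781, no overlap), and T cell markers to 3.54 to 4.07 against 3.21 to 3.33 RPKM, mostly Lck (log2 change 0.20 ± 0.093 SE, adjusted p = 0.177, no overlap). The sums of NK cell markers and of myeloid and dendritic markers overlapped. Xbp1, a transcription factor known to drive ER genes, was at 234, 266 and 261 RPKM in GL7+ GSK-J4 and 198, 209.6 and 192 in GL7+ DMSO (log2 change 0.34 ± 0.094 SE, adjusted p = 0.0287). The part of these marker changes in the result was not tested.

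By role, the HSP90 and HSP70 system had 5 of 6 members higher in GL7+ GSK-J4. Hsp90b1 had 1124, 1265 and 1160.4 RPKM with GSK-J4 and 844, 860.3 and 823 with DMSO. Manf had 168, 184 and 183 RPKM with GSK-J4 and 130.2, 139 and 131 with DMSO (log2 change 0.42 ± 0.066 SE, adjusted p = 0.00131), without overlap. Hyou1 rose by 0.40 ± 0.07 (adjusted p = 0.00261), Dnajb11 by 0.38 ± 0.056 (0.000848) and Dnajc10 by 0.21 ± 0.056 (0.0252). Sil1 did not pass, with 11.8, 15.4 and 13.3 RPKM against 13.8, 14.9 and 11.5 and a log2 change of 0.011 ± 0.11. Among the disulfide isomerases Pdia3, Pdia4 and Pdia6 rose by 0.29 ± 0.063, 0.29 ± 0.078 and 0.30 ± 0.074 (adjusted p = 0.008, 0.0254 and 0.0176). P4hb had 294, 308 and 278 RPKM with GSK-J4 and 303, 311 and 269 with DMSO, a log2 change of -0.0045 ± 0.058, so its libraries overlapped.

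In the lectin chaperone cycle Calr rose by 0.32 ± 0.055 (adjusted p = 0.00211) and Mogs by 0.38 ± 0.11 (0.0298), while Canx had 236, 248 and 211 RPKM with GSK-J4 and 226, 235 and 227 with DMSO (log2 change 0.011 ± 0.069 SE, adjusted p = 0.946). In oligosaccharyltransferase Stt3a rose by 0.18 ± 0.044 (0.0141) and Ddost by 0.24 ± 0.057 (0.0146), and Stt3b changed by -0.0072 ± 0.052 (0.954). In ERAD Edem3, Derl1 and Ube2g2 rose by 0.34 ± 0.088, 0.17 ± 0.052 and 0.19 ± 0.057 (adjusted p = 0.0208, 0.0499 and 0.0374). Derl3, at 58.8, 57.8 and 64.4 RPKM with GSK-J4 against 51.1, 50.1 and 49.7 with DMSO, did not overlap between the groups and did not pass (log2 change 0.25 ± 0.10 SE, adjusted p = 0.12). None of the 6 enzymes that build the sugar tree passed, with log2 changes of -0.025 to 0.26 and adjusted p of 0.148 to 0.869.

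Of these 15 calls 6 held in all 22 alternative settings, those of Calr, Hsp90b1, Hyou1, Dnajb11, Manf and Pdia3. Leaving out GL7+ GSK-J4 replicate 2 or GL7+ DMSO replicate 3 brought the count of 15 to 6, and leaving out GL7+ GSK-J4 replicate 3 brought it to 8. The share of all genes called fell as well, from 13.5% in the main fit to 6.84%, 7.74% and 7.54% in these fits. Over all fits that left out 1 library each, Ddost, Dnajc10, Edem3, Mogs, Pdia4, Pdia6 and Stt3a lost their calls in 2 to 5 of 15 fits, with adjusted p of up to 0.118. Derl1 lost its call in 11 and Ube2g2 in 9 of these fits (adjusted p up to 0.192 and 0.138). With the mouse as a replicate block Derl1 (0.0602) and Ube2g2 (0.0512) were not called and Rpn2 was (0.0349, against 0.0532 without the block).

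**Figure D5:**
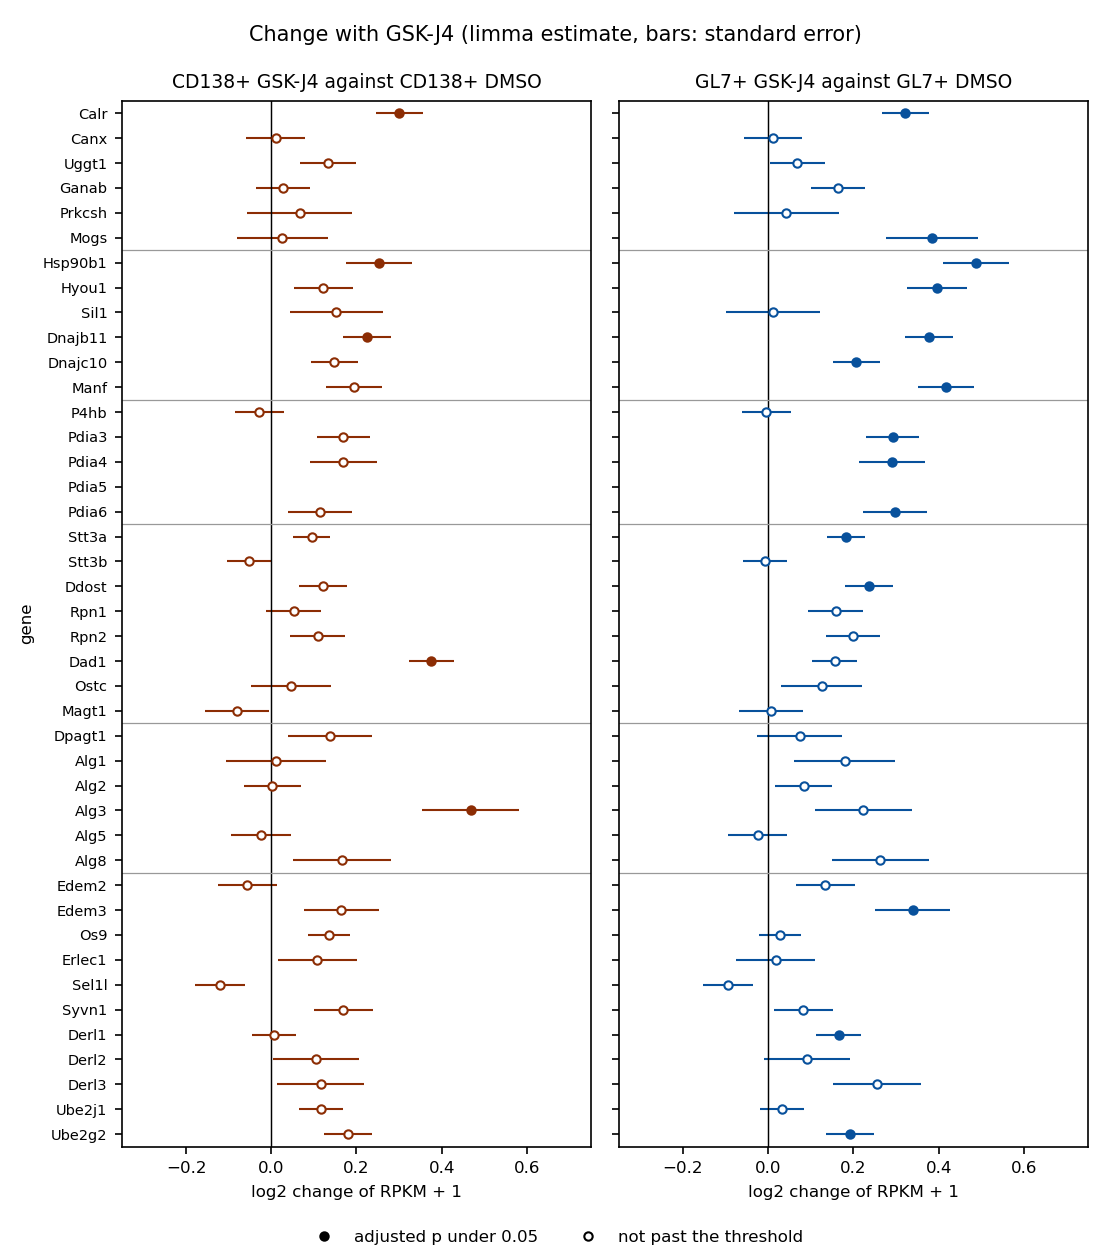
log2 change of RPKM + 1 with GSK-J4 and its standard error (limma) for each tested gene in CD138+ cells (left) and in GL7+ cells (right), n = 3 libraries per group; filled points passed an adjusted p of 0.05. There are 5 filled points on the left and 15 on the right, all above 0, and Calr, Hsp90b1 and Dnajb11 are filled on both sides.

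In the CD138+ fraction, 5 of the 41 members tested rose with GSK-J4 and none fell, where 4.61% of all genes rose and 8.61% fell. The median log2 change was 0.12 in the members and -0.03 over all genes tested, and in 21 members the lowest CD138+ GSK-J4 library stood above the highest CD138+ DMSO library, as in 14.4% of all genes. The 5 were Calr, Hsp90b1, Dnajb11, Dad1 and Alg3. Calr had 1742, 1730.2 and 1777 RPKM with GSK-J4 and 1399, 1393 and 1471 with DMSO (log2 change 0.30 ± 0.055 SE, adjusted p = 0.00276). Dad1 had 54.1, 51.2 and 53.1 RPKM with GSK-J4 and 37.7, 41.7 and 42.3 with DMSO (log2 change 0.38 ± 0.053 SE, adjusted p = 0.000435). The groups overlapped in neither gene. Alg3, which adds a mannose in the ER lumen, had 24.96, 25.6 and 29.02 RPKM with GSK-J4 and 16.9, 21.6 and 18.3 with DMSO (log2 change 0.47 ± 0.11 SE, adjusted p = 0.0151), the largest change among the members here. Hsp90b1 rose by 0.25 ± 0.077 (adjusted p = 0.0435) and Dnajb11 by 0.22 ± 0.056 (0.0163). Sel1l ran the other way, with 98.6, 99.2 and 97.6 RPKM against 107, 106 and 109, and did not pass (log2 change -0.12 ± 0.059 SE, adjusted p = 0.204). Edem2, P4hb, Magt1, Stt3b and Alg5 also had changes below 0, of -0.056, -0.028, -0.08, -0.052 and -0.024, none past the threshold. Here none of the 5 plasmablast markers passed, with sums of 3111 to 3289 RPKM in CD138+ GSK-J4 against 2849 to 3063 in CD138+ DMSO, and 3 of 4 B cell markers fell (sums of 793 to 825 against 966 to 1023 RPKM). Their part in the result was not tested.

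The count in the CD138+ fraction moved with the setting. The calls of Calr and Dad1 held in all 22 alternatives. That of Alg3 was lost without CD138+ GSK-J4 replicate 4 (adjusted p = 0.0648) or CD138+ DMSO replicate 1 (0.0738) or 3 (0.0556), and that of Dnajb11 without CD138+ GSK-J4 replicate 2 (0.0536) or 4 (0.0568) or CD138+ DMSO replicate 1 (0.0767) or 2 (0.057). Hsp90b1 lost its call with no filter on low values (limma adjusted p = 0.0938) and with quantile normalization. It also lost its call in 11 of 15 fits without a library, all 6 of the CD138+ fraction among them (adjusted p 0.0535 to 0.138), and with the mouse as a replicate block (0.129). In that block fit CD138+ GSK-J4 replicate 4, without a mouse, had a block of its own and so added nothing to the change. Without that library and with no block the adjusted p of Hsp90b1 was 0.119. The count was 2 without CD138+ GSK-J4 replicate 4 or CD138+ DMSO replicate 1, 3 without CD138+ GSK-J4 replicate 2 or CD138+ DMSO replicate 2 or 3, 8 without naive replicate 1 and 13 without the shallow naive replicate 2, which enters only through the shared estimate of the spread. With only the CD138+ groups in the fit 13 members rose and Sel1l fell (adjusted p = 0.0338), and TMM scaling and limma-voom each gave 11. The share of all genes called was 13.2% in the main fit and moved too. It was 7.61% without CD138+ DMSO replicate 1 and 20.3% without naive replicate 2. With only the CD138+ groups it was 15.6%, with TMM scaling 13.7% and with limma-voom 18.5%.

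The change with GSK-J4 was then compared between the fractions. In the difference of the drug effects, CD138+ less GL7+, none of the 41 members passed (limma, and 0 by limma-voom), where 0.966% of all genes did. An unadjusted p under 0.05 (limma) was reached by 1458 of all 10866 genes tested and by 6 members. Those 6 were Mogs, Hsp90b1, Hyou1, Manf and Derl1, with the larger change in GL7+ cells, and Dad1, with the larger change in CD138+ cells. The estimate was -0.27 ± 0.099 for Hyou1 (adjusted p = 0.222) and 0.22 ± 0.075 for Dad1 (0.196). So the 12 members called in GL7+ and not in CD138+ cells, and Alg3 and Dad1, called in CD138+ and not in GL7+ cells, are not shown to differ between the fractions. The drug comparisons use separate libraries but are not independent. Replicate numbers name the same mice in both fractions, except for CD138+ GSK-J4 replicate 4, and the fit shares 1 estimate of the spread. In 35 of 41 members the change was above 0 in both fractions and in 4 below 0 in both (P4hb, Stt3b, Alg5 and Sel1l), against 3007 and 4207 of all 10866 genes. Across the 41 members the changes had a Pearson r of 0.52 and a Spearman rho of 0.59, and across all genes an r of 0.51 and a rho of 0.48. Genes are not independent replicates, and these values are descriptions.

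The 6 members with an ERSE in their promoter can be read against these values. In CD138+ DMSO over naive cells their log2 changes were 1.09 for Syvn1, 1.61 for Canx, 2.15 for Calr, 3.40 for Pdia6, 3.43 for Hsp90b1 and 5.16 for Derl3, so they lay on both sides of the members' median of 2.00. With GSK-J4 in GL7+ cells Calr, Hsp90b1 and Pdia6 passed, and Canx, Derl3 and Syvn1 did not. Dnajb11, with the ERSE-II, rose in both drug comparisons.

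Other genes of the same pathways, 59 in all, were listed for comparison, of which 58 were tested. In GL7+ GSK-J4 over GL7+ DMSO 8 rose and 1 fell (5.81% and 7.71% of all genes). Among chaperones and folding enzymes 6 of 17 rose, led by Creld2 (149.8 ± 5.15 RPKM against 100.4 ± 3.63, log2 change 0.57 ± 0.058 SE, adjusted p = 8.45e-05). Hspa5, which encodes BiP, the HSP70 of the ER, was at 769 ± 34.8 RPKM with GSK-J4 and 624 ± 5.01 with DMSO (log2 change 0.30 ± 0.067 SE, adjusted p = 0.00983). Dnajc3, a co-chaperone of BiP, rose by 0.27 ± 0.053 (0.00538) and Sdf2l1 by 0.36 ± 0.095 (0.0245). In ERAD Edem1, another mannose-trimming protein, rose by 0.35 ± 0.071 (0.00607) and Nploc4, a cofactor of the ATPase VCP, by 0.23 ± 0.049 (0.00671), 2 of 17. Of 24 N-glycosylation genes none rose and Dpm1 fell (1.03 ± 0.186 RPKM against 1.52 ± 0.166, adjusted p = 0.0499). The ERSE was in 4 of the 45 related genes with a promoter (8.89%): Creld2, Hspa5, Dnajc3 and Alg12. Of these Alg12, an N-glycosylation gene, did not rise. The ERSE-II was in Herpud1 and Krtcap2, and neither rose here.

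In CD138+ GSK-J4 over CD138+ DMSO 8 of the 58 related genes rose and 1 fell (4.61% and 8.61% of all genes). Gmppa, Ost4, Dolpp1 and Tmem258 rose among N-glycosylation genes (4 of 24), of which Ost4 and Tmem258 encode small subunits of oligosaccharyltransferase: Ost4 was at 173 ± 5.41 RPKM with GSK-J4 and 142 ± 5.42 with DMSO (log2 change 0.29 ± 0.072 SE, adjusted p = 0.0176). Among chaperones and folding enzymes Fkbp2 and Dnajb9 rose and Cnpy3 fell, with 6.50 ± 0.301 RPKM against 12.6 ± 0.790 (log2 change -0.86 ± 0.067 SE, adjusted p = 3.34e-06). Ubxn4 and Rnf5 rose in ERAD. Between the fractions without drug 43 of 58 rose and 3 fell in CD138+ DMSO over GL7+ DMSO (21.8% and 36.9% of all genes), among them 16 of 17 chaperones and folding enzymes, 12 of 24 N-glycosylation genes and 15 of 17 ERAD genes that rose. In GL7+ DMSO over naive cells 40 of 58 rose and 8 fell (41.3% and 40.3% of all genes), and in CD138+ DMSO over naive cells 46 rose and 6 fell (39.9% and 43.5%). Txndc5, a disulfide isomerase, was at 635 ± 30.8 RPKM in CD138+ DMSO, 148 ± 9.75 in GL7+ DMSO and 58.9 ± 2.71 in naive cells.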

How the data were processed

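Poly(A) RNA of 15 samples was sequenced. The authors deposited 1 table of RPKM values per gene and library, with gene lengths in bases, per the file headers. TopHat2 and the mm9 genome are named in the submitters' processing notes, and nothing else about alignment, counting, strand or filters is given in the sources used here, so antisense and overlapping genes cannot be told apart. Deposited lengths set each RPKM level. RPKM times length in kilobases summed to 1e+06 per library. All values worth up to 20 reads lay within 0.1 read of a whole read, and this unit gave the depths of 6175170 to 13189960 reads, and 1318002 in naive replicate 2, where low members are least precise.

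Groups came from the labels. A CD138+ GSK-J4 column numbered 4 matched that group but no labelled sample, and the labelled replicate 3 had no column of its own. The column entered as a replicate without a mouse.

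The design foresaw RPKM or counts, and the values were RPKM. For testing, 10866 genes that reached 1 RPKM in 3 or more libraries entered limma 3.58.1 (R 4.3.3) as log2(RPKM + 1), all 15 libraries in 1 fit with a trended variance and 6 contrasts. P-values were adjusted over all genes tested (Benjamini-Hochberg, threshold 0.05). The script was tested on simulated data. Replicate numbers name the mouse in the labels, so they pair samples. The correlation of libraries after removal of group means had a median r of 0.07 within a mouse (26 pairs, -0.04 to 0.19) and -0.03 between mice (52 pairs). The block by mouse was an alternative, in which CD138+ GSK-J4 replicate 4 had a block of its own and so added nothing to its comparisons. The others were a pseudocount of 0.1, no filter, TMM scaling, quantile normalization, limma-voom on recovered reads, only the groups compared in the fit, and each library left out. All 42 members could be named. Values per library are given for those with high levels or large changes in each role, and up to 4 related genes are named per list by adjusted p. The members and lists were chosen with earlier results of these data known. Promoters are those of RefSeq (GRCm38.p6). As the table's build is mm9, members were matched by symbol, and no coordinates are given for the table's genes. Plots were made with matplotlib 3.10.9 (python 3.11.15).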

Additional observations from a re-analysis of the deposited data

Results flagged for a closer look

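The effect of GSK-J4 differed between the CD138+ and GL7+ fractions, by limma's test of the difference itself, for 2 of the 58 related genes tested, neither of them among the 42 members. Of all 10866 genes tested 0.966% passed this test. For Creld2, an ER disulfide isomerase-like protein, the drug effect in CD138+ less that in GL7+ cells was -0.45 on the log2 scale (limma adjusted p = 0.0219). Creld2 was at 417 ± 34.1 RPKM in CD138+ GSK-J4 and 383 ± 11.4 in CD138+ DMSO, and at 149.8 ± 5.15 in GL7+ GSK-J4 and 100.4 ± 3.63 in GL7+ DMSO. Over 23 settings its difference lay between -0.51 and -0.40 and passed in 15 (adjusted p 0.00197 to 0.0743). For Cnpy3, a chaperone of Toll-like receptors, the difference was -0.69 (limma adjusted p = 0.0075). Cnpy3 was at 6.50 ± 0.301 RPKM in CD138+ GSK-J4 and 12.6 ± 0.790 in CD138+ DMSO, and at 26.9 ± 2.44 in GL7+ GSK-J4 and 30.5 ± 1.58 in GL7+ DMSO. It passed in all 23 settings (-0.78 to -0.61, adjusted p 0.00197 to 0.0317).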

How the results depend on the processing

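Each result was recomputed under 22 alternatives. In CD138+ GSK-J4 against CD138+ DMSO the count of 5 members called became 11 with TMM scaling, 11 with limma-voom and 14 with only the compared groups in the fit (13 higher, 1 lower), and 2 to 13 without a library, most without naive replicate 2. In GL7+ GSK-J4 against GL7+ DMSO the count of 15 was 6 to 20 without a library and 12 to 21 in the other settings. The share of all genes called moved too. Without a library it was 7.61% to 20.3% in the CD138+ comparison, against 13.2% in the main fit. In the GL7+ comparison it was 6.84% to 20.8%, against 13.5%. The difference of the drug effects gave 1 member, Hsp90b1, with quantile normalization, against 0, and 0 in each fit that left out 1 library. CD138+ DMSO against GL7+ DMSO gave 40 to 41, GL7+ DMSO against naive 37 to 39 and CD138+ DMSO against naive 41 to 41 without a library. With quantile normalization the change in GL7+ DMSO over naive cells turned to -0.16 for Stt3b, -0.10 for Os9 and -0.087 for Syvn1. The cause was not tested. Quantile normalization works on ranks among all genes tested and left the change of Hsp90b1 in CD138+ cells at 0. The call of Hsp90b1 in the difference of the drug effects thus rests on the GL7+ side alone. With the mouse as a replicate block the counts were 4, 14, 0, 40, 39 and 41 in the order of these comparisons, and it changed no call other than those of Hsp90b1, Derl1, Ube2g2, Rpn2 and Alg1 given above. CD138+ GSK-J4 replicate 4, without a mouse, added nothing to the counts of 4 and 0. TMM scaling moved the median of all genes in CD138+ DMSO over GL7+ DMSO to -0.0052, against -0.10. The planned tests with edgeR and DESeq2 on recovered reads were not run. Leaving out a library of a group leaves 2 there, and the fit pools the spread. Naive replicate 2, at 1318002 reads, limits the low members in naive cells.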
